A study of Homo sapiens with 11 samples.

Results

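Intermediate filaments are flexible cables of coiled-coil proteins that give cells and nuclei their mechanical strength. Epithelial cells build theirs from keratins, in which an acidic type I chain always pairs with a basic type II chain; mesenchymal cells use vimentin, which assembles with itself; and nearly all differentiated cells line the nucleus with lamins. A carcinoma cell that carries vimentin beside its keratins is often described as having some mesenchymal character. The ratio of vimentin to keratin mRNA was therefore followed here.

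The 7 genes described here were taken by symbol from the table of all 57773 genes: VIM (vimentin), the type II keratins KRT7, KRT8 and KRT80, the type I keratins KRT18 and KRT19, and LMNA, which encodes lamins A and C. All 7 passed the filter for testing, a mean of at least 1 FPKM, a read count scaled to transcript length and library size, over the libraries, as did 15179 genes in all. RNA-Seq was performed on HCC78, a lung adenocarcinoma line which already carries U2AF1 S34F of its own, at 32% of U2AF1 mRNA in both parental libraries by the labels. U2AF1 is the splicing factor subunit that reads the AG at the 3′ end of introns. HCC78 cells were transduced with a lentiviral, doxycycline-inducible construct for FLAG-HA tagged U2AF1, either wild type (WT) or S34F, and grown as stable subclones, and RNA was taken with doxycycline (dox+) or without it (dox-).

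The 9 libraries were 2 parental, without construct and labelled as without doxycycline (a supplementary list of the study has them as treated), 2 WT dox-, 2 WT dox+, 1 S34F dox- and 2 S34F dox+. By the labels, S34F made up 12% and 14% of U2AF1 mRNA in WT dox+, 33% in both WT dox- libraries, 28% in S34F dox- and 62% and 65% in S34F dox+. U2AF1 mRNA was between 164 and 299 FPKM in the 4 dox+ libraries and between 103 and 115 FPKM in the other 5. S34F dox+ replicate 2 stood apart, with 20896 genes at 1 FPKM or more against 13661 to 17716 in the other libraries. Nothing in the labels says that replicates were separate cultures, so the p-values measure the spread between these libraries, which may be technical, and the number of reads behind each FPKM value was not analysed here. A subclone and its construct cannot be told apart in the differences between lines.

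The cells had the epithelial identity of the label. All 10 epithelial markers in the list, including EPCAM and CDH1, had a mean of at least 1 FPKM, and their summed level was between 1369 and 1992 FPKM. Of markers of other cells, 3 of 8 fibroblast genes, 0 of 4 endothelial genes in the table, 2 of 6 leukocyte genes and 1 of 4 smooth muscle genes reached that mean, and none was listed at 0 in all 9 libraries.

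HCC78 was a line rich in keratin mRNA, with much less vimentin mRNA beside it. KRT7 was the most abundant of the 7 mRNAs in every library, at 2873 to 4196 FPKM, and its mean of 3667 FPKM ranked 33rd among all genes. KRT19 followed with 1435 to 2246 FPKM and KRT8 with 1569 to 2410 FPKM, and these neighbours could not be ordered, since KRT19 was the higher in 5 of 9 libraries. KRT18, the usual partner of KRT8, was at 1046 to 1963 FPKM and below KRT8 in 9 of 9 libraries, although their ranges overlapped. LMNA stood next at 465 to 523 FPKM, with no overlap with KRT18 above or KRT80 below. KRT80, a keratin found near cell junctions, was at 37.9 to 65.1 FPKM and VIM at 12.1 to 73.2 FPKM. The VIM mean of 34.8 FPKM ranked 3322nd among all genes. KRT80 exceeded VIM in 7 of 9 libraries, the exceptions being both S34F dox+ libraries. These orders are of FPKM, a level per length. On the TPM scale, in which every library has the same total, the 5 keratins together made up 0.686% to 0.958% of each library.

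**Figure D1:**
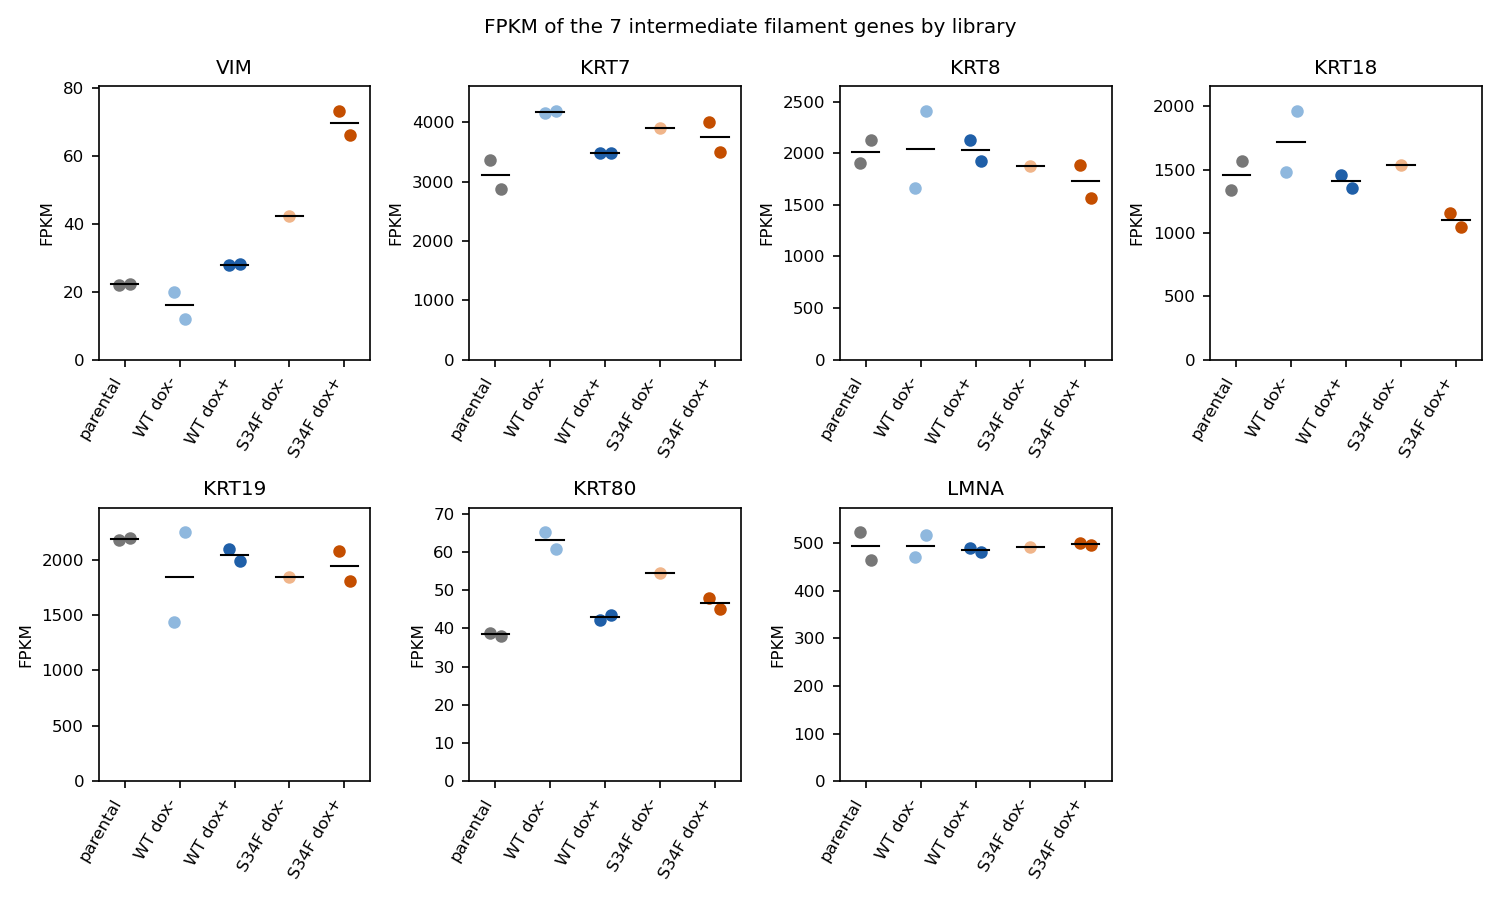
FPKM (linear y axes from 0) of VIM, KRT7, KRT8, KRT18, KRT19, KRT80 and LMNA in 5 groups; points are libraries and bars are group means, with 1 library for S34F dox-. VIM is highest in the 3 libraries of the S34F line, at 42.13 to 73.16 FPKM, whereas LMNA lies between 465 and 523 FPKM throughout.

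The spread over libraries differed widely between the genes. LMNA had a coefficient of variation of 3.91% over the 9 libraries and the 4 abundant keratins between 11.8% and 18.3%. KRT80 had 19.9% and VIM 61.4%. The highest VIM library, S34F dox+ replicate 1, was 6.05 times the lowest, WT dox- replicate 2. For LMNA this ratio was 1.12.

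Vimentin mRNA was higher in the S34F line than in the WT line, both with and without doxycycline. The parental value of VIM was 21.97 and 22.25 FPKM, replicate 1 first. In the WT line it was at 19.86 and 12.10 FPKM without doxycycline and at 27.76 and 28.12 FPKM with it. In the S34F line it was at 42.13 FPKM in the single dox- library and at 73.16 and 66.17 FPKM with doxycycline. All 3 S34F libraries lay above all 6 others. In the background, 1.29% of the genes tested had their 3 S34F libraries above the other 6. Group means were 69.7 ± 4.94 FPKM (SD, n = 2) in S34F dox+ and 27.9 ± 0.255 FPKM (SD, n = 2) in WT dox+.

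S34F dox+ was compared with WT dox+ to see how the 7 mRNAs differ when the 2 forms of U2AF1 are induced. Expression was tested with limma on log2(FPKM + 1), with the 5 groups fitted together, two-sided, and the p-values were adjusted over all genes tested by the Benjamini-Hochberg method; fold changes are on that scale. None of the 7 genes passed an adjusted p under 0.05, where 0.0527% of all genes did, and 1 of the 7, VIM, had an unadjusted p under 0.05, as did 6.78% of all genes. VIM had a log2 fold change of 1.29 (SE 0.20, 95% confidence interval 0.81 to 1.76, adjusted p = 0.234). The median log2 fold change of the 7 genes was 0.036, beside 0.029 for all genes. In this pair of groups only 2 libraries stand on each side, and 35.8% of all genes had groups that did not overlap; 6 of the 7 genes were among them.

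When the difference between lines was averaged over dox+ and dox-, VIM was the 1 gene of the 7 that passed the test, as 0.119% of all genes did. The S34F line exceeded the WT line by a log2 fold change of 1.33 (SE 0.16, 95% confidence interval 0.96 to 1.71, adjusted p = 0.0397), a fold of 2.52. The call was close to the threshold. The log2 fold change stayed between 1.17 and 1.503 under the 18 alternatives, but the adjusted p ranged from 0.00957 to 0.291 and was under 0.05 in 6 of them. It was lost without parental replicate 1 (adjusted p = 0.243) or 2 (adjusted p = 0.242), S34F dox+ replicate 1 (adjusted p = 0.173) or 2 (adjusted p = 0.196), and WT dox+ replicate 1 (adjusted p = 0.255) or 2 (adjusted p = 0.291). It held without either WT dox- library. The line difference rests on 1 S34F dox- library, which alone was 2.64 times the mean of the WT dox- libraries; with doxycycline the ratio of means was 2.49.

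**Figure D2:**
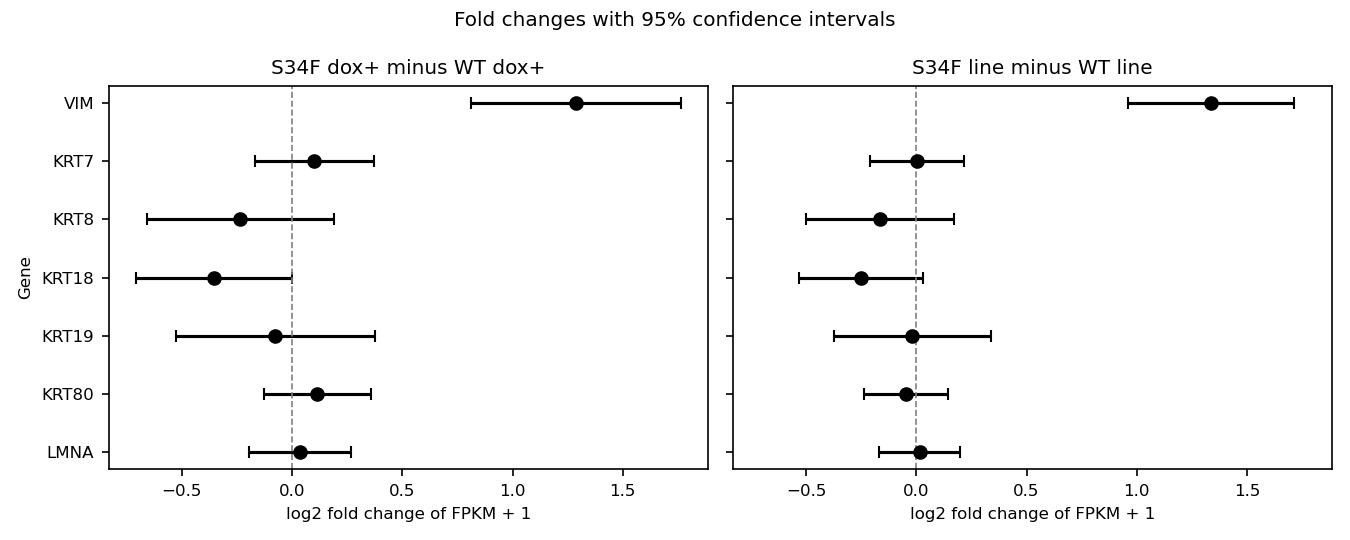
Log2 fold change of FPKM + 1 (x axes) for the 7 genes (y axis) with 95% confidence intervals from limma, for S34F dox+ minus WT dox+ (left) and for the S34F line minus the WT line averaged over dox+ and dox- (right). In both panels the interval of VIM lies above 0 and those of the other 6 genes include 0.

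The VIM level was higher with doxycycline, and so with induced U2AF1, than without it in both lines. The difference did not pass the test in the WT line and was not tested in the S34F line, which has 1 dox- library. WT dox+ exceeded WT dox- by a log2 fold change of 0.81 for VIM (SE 0.20, adjusted p = 0.184). Without WT dox- replicate 2, the lowest library, this was 0.47. The ratio of mean dox+ to dox- FPKM was 1.75 in the WT line and 1.65 in the S34F line, and the contrast of these responses was -0.097 on the log2 scale (95% confidence interval -0.85 to 0.66, adjusted p = 1). That interval is too wide to show that the lines respond alike, and the sign turned to 0.24 without WT dox- replicate 2. None of the 7 genes passed the test for a difference in response, at an adjusted or an unadjusted p under 0.05, where 0.0264% of all genes were called and 3.42% had an unadjusted p under 0.05.

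The reads that the authors' splicing tables assign to VIM gave a similar ratio. The median over its events was 1174 reads for S34F and 677 for WT, a ratio of 1.73, against a median ratio of 0.694 over 17650 genes. Divided by that median, VIM was at 2.50, beside 2.49 for the ratio of mean FPKM in the dox+ libraries. These reads come from the same experiment and are not independent evidence. The splicing comparison numbers its conditions without naming them, and the first was read as S34F because its title puts mutant before wild type. That reading was checked against FPKM ratios, VIM included, so the shared direction is not support for either.

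Fibroblast and endothelial cells can carry vimentin, as can leukocytes. The 8 fibroblast markers summed to 4.72 to 14.5 FPKM in the S34F line, 6.87 to 15.2 FPKM in the WT line and 4.81 to 9.0 FPKM in the parental line, so the lines overlapped. The 4 endothelial markers in the table summed to at most 3.01 FPKM. The 6 leukocyte markers summed to 22.8 to 36.6 FPKM in the S34F line against 15.8 to 22.2 FPKM in the WT line and 28.2 to 28.8 FPKM in the parental line. This sum was above VIM in the parental line, and most of it was CD68, at 13.48 to 34.42 FPKM; PTPRC, the pan-leukocyte marker, was at 0 to 2.71 FPKM. The line difference of CD68 was a log2 fold change of 0.59 (adjusted p = 0.557), and its part in the VIM result was not tested. In these bulk samples, more cells with a given mRNA and more of it per cell cannot be told apart.

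The simple-epithelial pair KRT8 and KRT18 showed no called difference. KRT8 had 1902 and 2127 FPKM in parental cells, 1667 and 2410 in WT dox-, 2127 and 1929 in WT dox+, 1881 in S34F dox- and 1886 and 1569 in S34F dox+. The WT dox- replicates were thus further apart than any of the group means. KRT18 had 1342 and 1565 FPKM in parental cells, 1480 and 1963 in WT dox-, 1458 and 1359 in WT dox+, 1539 in S34F dox- and 1160 and 1046 in S34F dox+. The S34F dox+ libraries held the 2 lowest KRT18 values of the 9, and the share of all genes with such a pattern was not counted. The log2 fold change of KRT18 in S34F dox+ over WT dox+ was -0.35 (SE 0.15, 95% confidence interval -0.71 to 0.0014, adjusted p = 0.733). That of KRT8 was -0.24 (SE 0.18, 95% confidence interval -0.66 to 0.19, adjusted p = 0.852), and it ranged from -0.37 without S34F dox+ replicate 1 to -0.10 without S34F dox+ replicate 2. Averaged over dox+ and dox-, the line differences were -0.25 for KRT18 and -0.16 for KRT8, with adjusted p of 0.87 and 0.978; without WT dox- replicate 2 they were -0.15 and -0.031. WT dox+ minus WT dox- was -0.28 for KRT18 (adjusted p = 0.449), and it was -0.48 without WT dox- replicate 1 and -0.072 without WT dox- replicate 2.

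Since type I and type II chains pair, their mRNA ratio was followed within each library, where scaling cancels. KRT8 over KRT18 was 1.63 and 1.501 in S34F dox+, 1.46 and 1.42 in WT dox+, 1.22 in S34F dox-, 1.13 and 1.23 in WT dox- and 1.42 and 1.36 in the parental line. The 3 dox- libraries of the transduced lines were the lowest, and the 2 S34F dox+ libraries the highest. The ratio of type II keratins (KRT7, KRT8 and KRT80) to type I keratins (KRT18 and KRT19) was above 1 in every library, from 1.34 to 2.02. VIM per 1000 FPKM of the 5 keratins was 7.97 and 8.30 in S34F dox+ and 4.56 in S34F dox-, against 3.01 and 3.19 in WT dox+, 2.25 and 1.11 in WT dox- and 2.49 and 2.53 in the parental line. The 3 S34F libraries were above the other 6 on this ratio too. These ratios are given without a test.

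**Figure D3:**
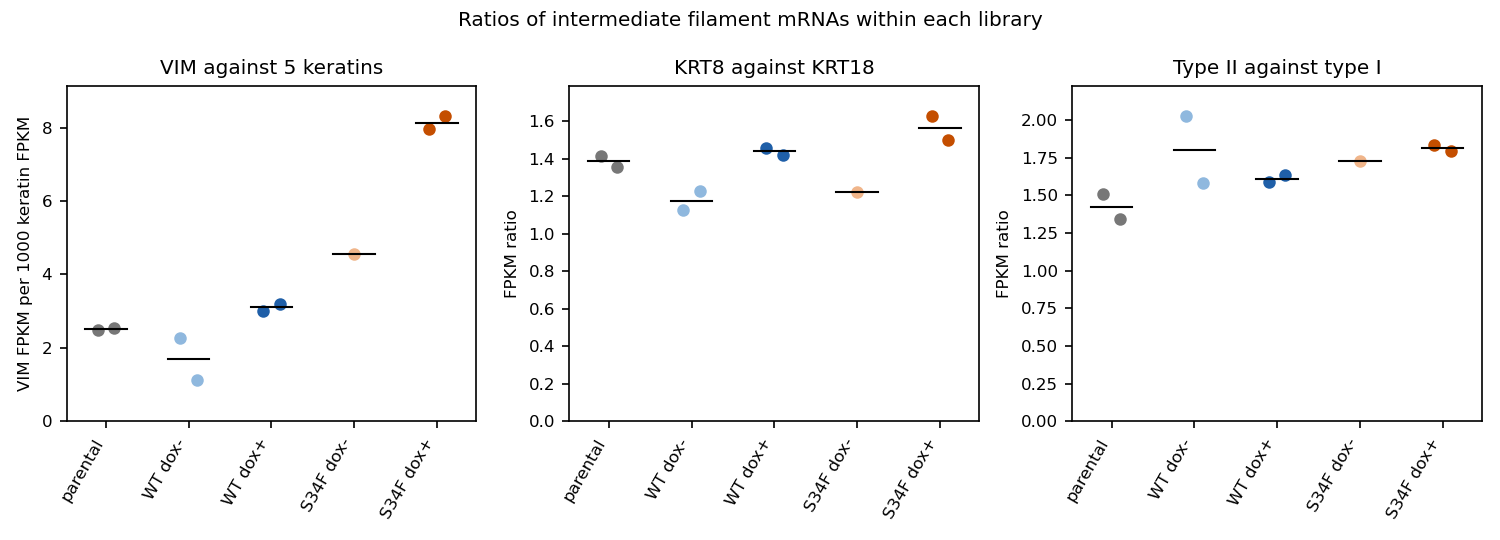
Ratios of FPKM within each library (linear y axes from 0) for VIM per 1000 FPKM of the 5 keratins, KRT8 over KRT18, and type II over type I keratins; points are libraries and bars are group means. The VIM ratio is 4.56 to 8.30 in the S34F line and at most 3.19 elsewhere, whereas type II over type I stays between 1.34 and 2.02.

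KRT7 and KRT19, which mark glandular and ductal epithelium, differed little between the lines. KRT7 had 3371 and 2873 FPKM in parental cells, 4164 and 4196 in WT dox-, 3488 and 3493 in WT dox+, 3911 in S34F dox- and 4006 and 3499 in S34F dox+. KRT19 had 2181 and 2194 FPKM in parental cells, 1435 and 2246 in WT dox-, 2100 and 1990 in WT dox+, 1845 in S34F dox- and 2077 and 1809 in S34F dox+. For KRT19 the extremes of all 9 libraries were the 2 replicates of WT dox-. In S34F dox+ over WT dox+ the log2 fold change was 0.10 for KRT7 (95% confidence interval -0.17 to 0.37, adjusted p = 0.91) and -0.076 for KRT19 (95% confidence interval -0.53 to 0.37, adjusted p = 0.971). The line differences were 0.0026 for KRT7 and -0.019 for KRT19, with intervals of -0.21 to 0.22 and -0.38 to 0.34. The difference of KRT7 with doxycycline was 0.0033 when replicate 1 of S34F dox+ was left out and 0.20 when replicate 2 was.

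KRT80 was at its highest in the transduced lines without doxycycline, and no comparison of it passed the test. Its FPKM was 38.85 and 37.94 in parental cells, 65.10 and 60.88 in WT dox-, 42.16 and 43.53 in WT dox+, 54.38 in S34F dox- and 47.90 and 45.11 in S34F dox+. The 3 dox- libraries of the transduced lines were the 3 highest of the 9, and the 2 parental libraries the 2 lowest. This grouping was taken from the KRT80 values themselves, and the share of all genes that show it was not counted. WT dox- exceeded the parental line by a log2 fold change of 0.70 (SE 0.10, adjusted p = 0.096) and S34F dox- exceeded it by 0.49 (SE 0.13, adjusted p = 0.316); both comparisons use the same parental libraries, and with protein-coding genes only the first had an adjusted p of 0.0418. WT dox+ was below WT dox- by -0.54 (SE 0.10, adjusted p = 0.133). KRT7 had the same signs, with 0.43 and 0.33 over the parental line (adjusted p = 0.23 and 0.559, the latter difference being 0.21 without parental replicate 2) and -0.26 in WT dox+ over WT dox- (adjusted p = 0.362). For VIM the parental comparisons gave -0.48 in WT dox- (adjusted p = 0.399) and 0.90 in S34F dox- (adjusted p = 0.359). The former was -0.82 without WT dox- replicate 1 and -0.15 without WT dox- replicate 2. Between the lines, KRT80 differed by 0.12 with doxycycline (adjusted p = 0.876) and by -0.046 averaged over both states (adjusted p = 1). The contrast of the responses was 0.32 for KRT80 (95% confidence interval -0.058 to 0.70, adjusted p = 1) and -0.21 for KRT18 (95% confidence interval -0.77 to 0.35, adjusted p = 1). For KRT18 this was -0.0022 without WT dox- replicate 1 and -0.41 without WT dox- replicate 2.

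In the 3 comparisons of single groups just used, limma called 0 of the 7 genes at an adjusted p under 0.05. The shares of all genes called were 0.0132% for WT dox+ minus WT dox-, 0.0988% for WT dox- minus parental and 0.112% for S34F dox- minus parental. At an unadjusted p under 0.05 the counts were 2, 3 and 2 of 7, where 14.4%, 12.3% and 8.93% of all genes passed.

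LMNA was the flattest of the 7. Its FPKM was 523 and 465 in parental cells, 470 and 517 in WT dox-, 490 and 482 in WT dox+, 491 in S34F dox- and 501 and 496 in S34F dox+. The parental replicates spanned the whole range. The log2 fold change was 0.036 in S34F dox+ over WT dox+ (95% confidence interval -0.20 to 0.27, adjusted p = 0.975) and 0.016 between the lines (95% confidence interval -0.17 to 0.20, adjusted p = 1). The B-type lamins, which are permanent parts of the lamina, were at 203 to 261 FPKM for LMNB1 and 89.7 to 150 FPKM for LMNB2. The ratio of LMNA to the sum of both was 1.71 and 1.47 in S34F dox+, 1.40 and 1.29 in WT dox+, 1.24 in S34F dox-, 1.18 and 1.26 in WT dox- and 1.51 and 1.37 in the parental line. It was thus lowest in the dox- libraries of the transduced lines.

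The rest of the family was mostly silent. Of 71 intermediate filament genes, 18 had a mean of at least 1 FPKM, 13 of at least 5 FPKM and 7 of at least 100 FPKM. Beside the 7 genes above, those with the highest means were LMNB1 (244 FPKM), LMNB2 (117 FPKM), KRT17 (26.0 FPKM), KRT16 (25.8 FPKM), KRT10 (6.98 FPKM) and KRT15 (5.22 FPKM). In S34F dox+ minus WT dox+, 0 of the 18 tested genes were called by limma, where 0.0527% of all genes were. Before adjustment (p under 0.05), 3 were higher and 1 lower, where 6.78% of all genes passed in either direction. The median log2 fold change of the 18 was 0.072. Between the lines, 1 of the 18 was called, VIM itself, where 0.119% of all genes were. The median was -0.032 beside 0.0076 for all genes.

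KRT16 and KRT17, keratins of wounded and stressed epithelium, were at their highest in S34F dox+. KRT17 was at 87.14 and 41.05 FPKM there, against 15.59 and 13.65 in WT dox+, 16.01 in S34F dox-, 14.54 and 4.08 in WT dox- and 26.64 and 15.44 in the parental line. KRT16 was at 53.10 and 37.95 FPKM in S34F dox+, 25.94 and 19.88 in WT dox+, 12.23 in S34F dox-, 6.97 and 14.06 in WT dox- and 36.01 and 26.29 in the parental line. The KRT17 replicates were far apart in S34F dox+ and in WT dox-, and neither gene passed the test. The log2 fold change in S34F dox+ over WT dox+ was 1.97 for KRT17 (SE 0.55, adjusted p = 0.546) and 0.95 for KRT16 (SE 0.32, adjusted p = 0.632). The line differences were 1.45 (SE 0.43, adjusted p = 0.686) and 0.61 (SE 0.25, adjusted p = 0.818), the latter being 0.38 without WT dox- replicate 1. KRT16, KRT17 and KRT14 are close paralogs with pseudogenes, so their values may share reads.

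**Figure D4:**
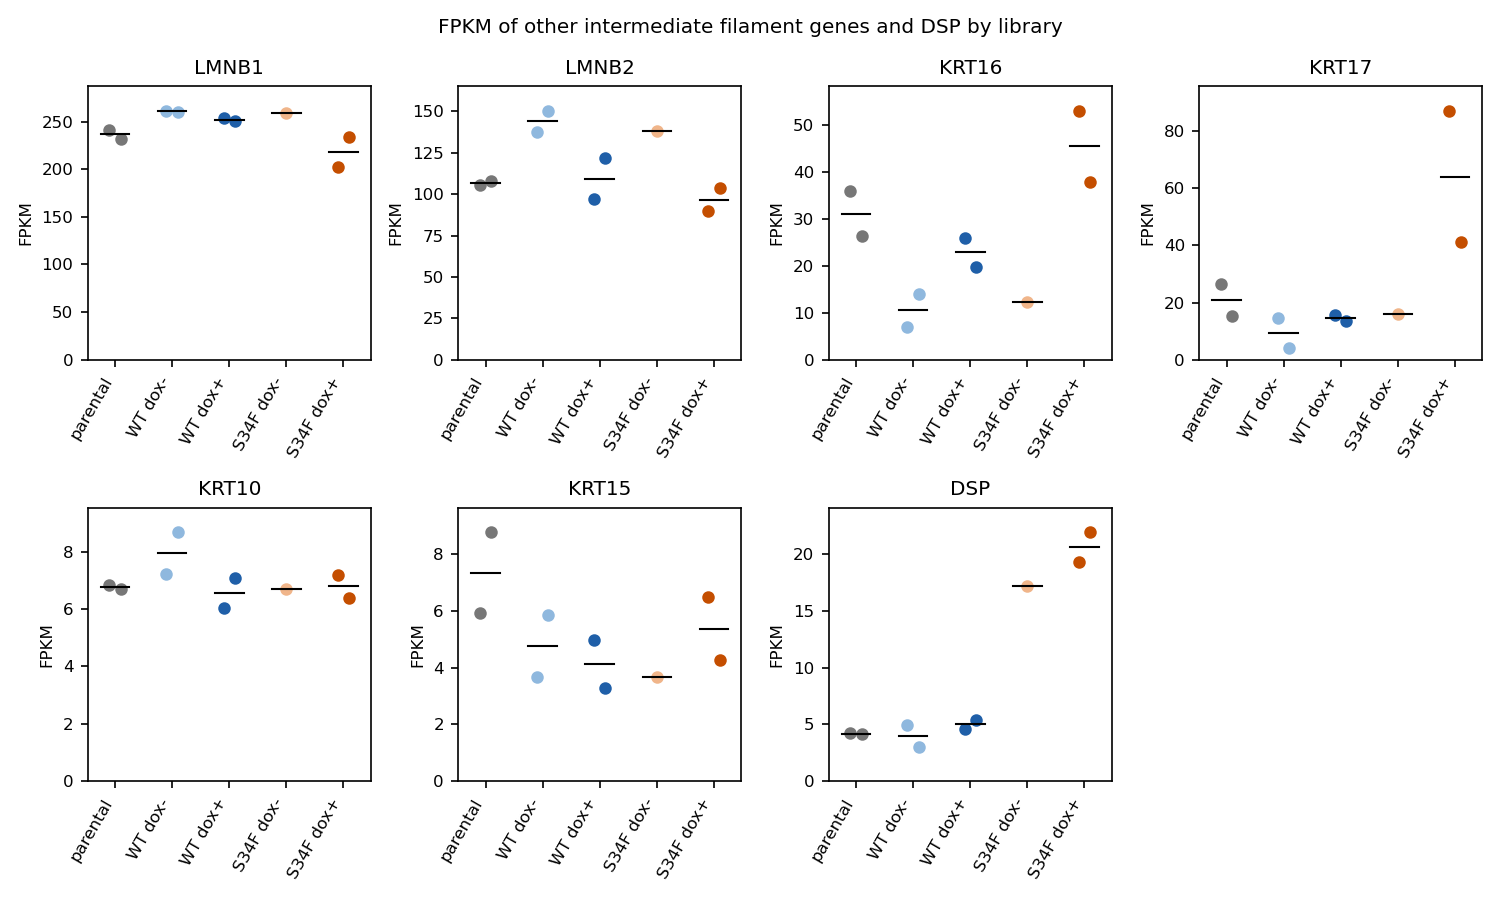
FPKM (linear y axes from 0) of LMNB1, LMNB2, KRT16, KRT17, KRT10 and KRT15, the other intermediate filament genes that averaged 5 FPKM or more, and of DSP; points are libraries and bars are group means, with 1 library for S34F dox-. DSP lies at 17.20 to 21.90 FPKM in the 3 libraries of the S34F line and at most 5.40 FPKM elsewhere.

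Among the proteins that anchor these filaments, desmoplakin was the 1 that passed the test. Of 20 genes for filament linkers and desmosomes, 15 were tested, with a median log2 fold change of 0.022 between the lines. In that comparison 1 was called higher and 0 lower, where 0.119% of all genes were called. That gene was DSP, which ties keratin filaments to the desmosome. It was at 17.20 FPKM in S34F dox- and 19.29 and 21.90 in S34F dox+, against 4.93 and 2.98 in WT dox-, 4.63 and 5.40 in WT dox+ and 4.23 and 4.13 in the parental line. The 3 S34F libraries were far above the other 6, with no overlap, a pattern that 1.29% of the genes tested had. The line difference was a fold of 3.67 (SE 0.17 on the log2 scale, adjusted p = 0.0083). It kept an adjusted p under 0.05 in 11 of 18 alternatives, and lost it when only the groups compared were fitted (adjusted p = 0.0708) and without parental replicate 1 (adjusted p = 0.0745) or 2 (adjusted p = 0.0728), S34F dox+ replicate 1 (adjusted p = 0.0606) or 2 (adjusted p = 0.0819), or WT dox+ replicate 1 (adjusted p = 0.0714) or 2 (adjusted p = 0.0742). S34F dox+ minus WT dox+ alone gave a log2 fold change of 1.84 (SE 0.21, adjusted p = 0.0588), and S34F dox- minus parental gave 1.81 (SE 0.26, adjusted p = 0.0949). Of 19 genes for lamina partners and prelamin processing, 18 were tested, and 0 were called between the lines. Before adjustment (p under 0.05), 1 was higher and 0 lower, where 514 of all 15179 genes were higher and 391 lower. The median log2 fold change of the 18 was 0.061.

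The genes whose pattern over the 9 libraries was nearest to a member were found by the mean absolute difference of log2(FPKM + 1), each gene centred on its own mean, among 4920 protein-coding genes that averaged 20 FPKM or more. For VIM they were TAGLN (0.35), an actin-binding protein, PTER (0.37), the cytokine IL32 (0.38) and PIK3CB (0.38), and the median over genes was 0.65. TAGLN was at 49.95 and 35.69 FPKM in S34F dox+ and at most 19.23 FPKM elsewhere. IL32 was at 106.34 to 107.82 FPKM in the 3 S34F libraries and at most 49.45 FPKM elsewhere. For KRT8 the nearest were SQRDL (0.054), PTTG1IP (0.058), CD276 (0.061) and CDK2AP2 (0.070), with a median of 0.20 over genes. For KRT18 they were NUDT21 (0.068), STK39 (0.068), the splicing factor SRSF9 (0.074) and the linker histone H1F0 (0.078), with a median of 0.22. The distances of the VIM neighbours were larger than those of the keratins. This measure grows with a gene's own spread, which was larger for VIM than for KRT8 or KRT18. These are descriptions over 9 libraries with no test.

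The listed copies of KRT8, KRT18 and VIM held a small share of their signal. The table lists 50 genes named as KRT8 pseudogenes or antisense genes and 67 for KRT18. Their summed FPKM was 1.36% to 2.98% of the level of KRT8 and 0.542% to 5.70% of that of KRT18. For VIM, 2 such genes summed to 1.23% to 6.80% of VIM. How many reads of each member were assigned to its copies was not tested.

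No splicing event of these genes passed the thresholds for a difference between S34F and WT. The authors' MISO tables give the percent spliced in (PSI, a fraction from 0 to 1), a Bayes factor for a difference and the supporting reads for 1 comparison, without replicates. The 7 genes had 58 entries, which are 54 different events because 4 were listed under both KRT8 and KRT18, and all 54 had at least 10 reads. A difference was counted at a PSI change of at least 0.10 with a Bayes factor of at least 5. None of the 54 events met both, where 1.18% of 87763 events of all genes did. A PSI change of at least 0.10, whatever its Bayes factor, was seen in 2 of the 54, where 32.9% of all events had one. In 48 of 54 events (88.9%) the difference was at most 0.02, against 33.5% of all events. Few of the events had a PSI from 0.1 to 0.9 on either side. Counted per gene, these were 0 for VIM and KRT19, 1 for KRT7, 2 for KRT18 and KRT80, 3 for KRT8 and 4 for LMNA. The others were near 0 or 1 on both sides, and the comparison with all events was not matched for this. The median number of reads was 25104 for the events of the 7 genes and 541 for all events. Among events with at least 1000 reads the shares within 0.02 were 92.3% of 52 and 53.6% of 32280. All 9 events of VIM carried 1174 to 1179 reads for S34F and those of KRT7 carried 44538 to 44758. Those of KRT8 carried between 22 and 35887, so the number differed from event to event in some genes. Counts this alike within a gene need not be reads that tell the isoforms apart. The number of reads is therefore not taken as support at the splice site.

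Both events with a larger difference were listed under KRT8. An alternative 3′ splice site event on the minus strand of chromosome 12 (53343301 to 53343499, GRCh37), listed under both KRT8 and KRT18, had a PSI of 0.19 for S34F and 0.48 for WT for the isoform with the largest Bayes factor, 3.22. It rested on 22 and 36 reads. All events listed under both genes were on the minus strand, as were the other events of KRT8. Those listed under KRT18 alone were on the plus strand. A retained intron event of KRT8 had a PSI of 0.37 and 0.14, with a Bayes factor of 0.88 and 217 and 417 reads. The remaining retained intron events of KRT8, KRT18 and VIM had a PSI of 0.97 to 0.99. Which isoform PSI counts in such events is not given in the sources used here, so these values are not read as the share of intron retained. All other events of KRT8 were within 0.01. The events listed under KRT18 other than the shared one were also within 0.01, among them an alternative 5′ splice site event at a PSI of 0.73 for S34F and 0.72 for WT.

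Vimentin, the gene of the 7 with the largest difference in level, had no splicing event past the thresholds. Its 9 events differed by at most 0.02. The event of VIM with the largest Bayes factor, 0.18, was a skipped exon event on chromosome 10 (17275930 to 17277168, GRCh37) at a PSI of 0.92 for S34F and 0.94 for WT. For KRT7, the skipped exon event had a PSI of 0.88 and 0.85 with a Bayes factor of 0.33. An alternative 3′ splice site event of KRT7 on chromosome 12 (52627404 to 52629110, GRCh37) carried a Bayes factor of 1000000000000, which is the highest value the tables hold, at a PSI of 0.01 for S34F and 0.02 for WT and so no difference of the size required. The 3 events of KRT19 had equal PSI in both, the event with the largest Bayes factor having 0 there. KRT80 had at most 0.03, in an alternative 3′ splice site event with 0.87 and 0.84. Among the events listed with at least 1000 reads, the largest difference was in LMNA. This was an event where the 3′ splice sites lie in tandem (NAGNAG, chromosome 1, 156096442 to 156099618, GRCh37). It had a PSI of 0.72 for S34F and 0.81 for WT, a Bayes factor of 0.59 and 3923 and 5959 reads.

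**Figure D5:**
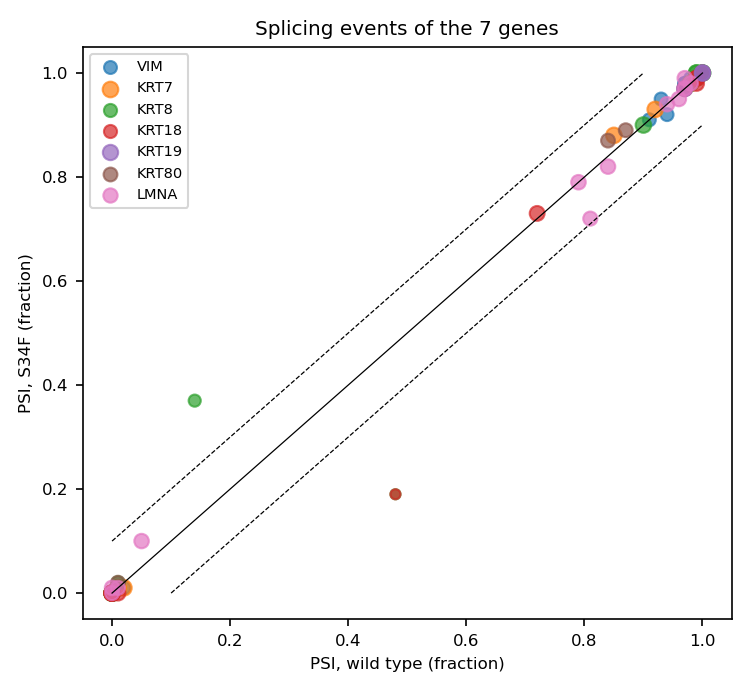
PSI in WT (x axis, fraction) against PSI in S34F (y axis, fraction) for the splicing events of the 7 genes; point area grows with the logarithm of the reads, the solid line marks equal PSI and the dashed lines a difference of 0.10. Of the 54 events, 2 lie outside the dashed lines, both of KRT8 and 1 of them also listed under KRT18, and neither had a Bayes factor of 5.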

How the data were processed

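The authors trimmed paired-end reads of stranded total RNA to 100 bases, aligned them with STAR 2.3.0 to GRCh37 (hg19) and computed gene FPKM and TPM with RSEM 1.2.29, per the submitters' processing notes; the strand setting is not given in the sources used here, and KRT8 and KRT18 lie side by side on opposite strands. Deposited FPKM and TPM values were used as they were. MISO results were deposited by the authors as PSI (a fraction), a Bayes factor score and read counts. How replicates were combined is not given in the sources used here. The conditions are numbered rather than named, and the first was read as S34F.

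Here, log2(FPKM + 1) was fitted for 15179 genes that averaged 1 FPKM or more in the 9 libraries by limma 3.58.1 (limma-trend, R 4.3.3) with 5 groups and no covariates, with Benjamini-Hochberg adjustment; calls were made at an adjusted p under 0.05. The fit was run on simulated data with changes larger than any reported here, which does not show its power for differences of the reported size. Same-numbered replicates did not deviate together (correlations from -0.076 to 0.037). PSI differences were recomputed, and events with several isoforms were read at the isoform of largest Bayes factor.

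The 7 genes and the gene lists were chosen with earlier results of these data known. Named genes were the 7; up to 6 other intermediate filament genes averaging 5 FPKM or more; up to 3 called genes from each partner list; and the 4 genes nearest in pattern to VIM, KRT8 and KRT18. Alternatives covered the pseudocount, minimum FPKM, scaling, TPM, protein-coding genes, a replicate block, the groups fitted, each library left out and the splicing thresholds. The 2 iCLIP libraries were not used here.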

Additional observations from a re-analysis of the deposited data

How the results depend on the processing

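The 34 log2 fold changes reported for the 7 genes, DSP, KRT16 and KRT17 were recomputed 629 times. Those of CD68 and KRT4 were not among them. Of the recomputed values, 592 kept their direction and side of the threshold, 19 lost and 4 gained a call, and 14 turned. None of the 14 had a reported size above 0.12. The count of the 7 genes called between the lines was 1 and became 0 with a pseudocount of 0.1 or 0.5, no minimum FPKM, median-ratio scaling, the replicate block (adjusted p = 0.072 for VIM) and only the groups compared, and 0 to 1 with a library left out. Fitting the replicate number as a block changed no other call among the 34 recomputed fold changes. With protein-coding genes only, 1 gene was called in WT dox- minus parental, KRT80. With a Bayes factor of at least 2, 1 splicing event passed, the alternative 3′ splice site event on the minus strand that was listed under both KRT8 and KRT18. The cause was not tested. With TPM, S34F dox+ minus WT dox+ turned to -0.017 for KRT7, -0.00024 for KRT80 and -0.081 for LMNA, and the line difference to -0.039 for KRT7 and -0.026 for LMNA; median-ratio scaling turned the latter contrast to -0.0080 for KRT7. TPM moved the median of all genes from 0.035 to -0.11 in the contrast of responses and from -0.011 to 0.10 in S34F dox- minus parental. With a library left out, KRT19 was between -0.18 and 0.023 in S34F dox+ minus WT dox+ and between -0.18 and 0.14 between the lines, KRT7 between -0.046 and 0.051 and LMNA between -0.018 and 0.050 between the lines, and the VIM response contrast between -0.43 and 0.24. Where a left-out library leaves a group with 1 library, that library is assumed to vary like the other groups. The number of replicates limits these results.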

Other observations

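KRT4, a keratin of stratified mucosa, was singled out after its values were seen. Its FPKM was 4.0 and 3.22 in parental cells, 1.24 and 1.53 in WT dox-, 1.29 and 1.33 in WT dox+, 0.44 in S34F dox- and 0.33 and 0.34 in S34F dox+. The 3 origins of the libraries did not overlap, and within each transduced line the dox+ and dox- values lay close together. Since the gene was chosen with these values in view, this is a description only. The share of all genes with such a pattern was not counted. The KRT4 mean of 1.52 FPKM was also close to the minimum of 1 FPKM for testing. The log2 fold change between the lines was -0.76 (SE 0.24, adjusted p = 0.706 from limma) and that of S34F dox- over the parental line was -1.67 (SE 0.37, adjusted p = 0.263 from limma), so neither passed the test.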
